A study of Mus musculus with 4 samples.

Results

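The Lin28 and let-7 axis was followed through 9 genes in single-cell RNA sequencing of primary mouse spermatogonial cultures. The genes were Lin28a, Lin28b, Trim71, Arid3a, Arid3b, Igf2bp1, Igf2bp2, Igf2bp3 and Hmga2, chosen by symbol among the 32285 genes of the count matrices, where each symbol named 1 gene. Cultures had been raised from Thy1+ testis cells of 3 pups at postnatal day 6, on STO feeder cells, a mouse embryonic fibroblast line. They were given either PBS, the vehicle, or extracellular vesicles (EVs) purified from whole testes of mice at postnatal day 7, at 1 µg/mL, in both arms for 3 days. Each arm had 2 libraries, named vehicle 1, vehicle 2, EV 1 and EV 2. The expression of EV 2, for which barcodes alone were read, was not analysed here, so that the EV arm rests on 1 library.

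LIN28A and LIN28B are RNA-binding proteins that hold back the maturation of let-7 microRNAs. LIN28A binds the let-7 precursor and recruits the terminal uridylyltransferases TUT4 and TUT7, and the exonuclease DIS3L2 then degrades the tailed RNA. Mature let-7 in turn silences messenger RNAs with matching sites in their 3′ untranslated regions, among them those of both Lin28 genes, so that the pair form a double-negative loop. LIN28A is a known marker of undifferentiated spermatogonia, and HMGA2, the IGF2BP proteins, TRIM71, ARID3A and ARID3B are products of long-known let-7 targets that are mostly high in embryonic and stem cells. The study asked about let-7b and let-7c as cargo of the vesicles, which is why these genes are read here.

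The mature family members below, from RefSeq on GRCm38.p6, are shown since their shared seed (bases 2 to 8, in capitals) defines which targets they can reach. Let-7b lies at chr15:85707325-85707346 and let-7c at chr15:85706616-85706637 and chr16:77599672-77599693, all on the plus strand.
let-7b-5p: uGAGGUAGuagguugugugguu
let-7c-5p: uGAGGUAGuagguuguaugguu
let-7a-5p: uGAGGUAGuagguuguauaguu
let-7f-5p: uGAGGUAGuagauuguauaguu
let-7g-5p: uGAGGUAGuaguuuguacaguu
let-7i-5p: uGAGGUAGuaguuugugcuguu
miR-98-5p: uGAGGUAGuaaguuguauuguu
The seed was the same in 10 mature sequences of the family, and let-7b and let-7c differed by 1 base (G17A, the base of let-7b first and positions counted from the 5′ end). None of these microRNAs is itself measured by the libraries, which count transcripts with poly(A) tails.

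Sites for this seed were read from the longest annotated 3′ untranslated region of each gene (GENCODE vM21, GRCm38, sense strand). The letters searched were CTACCTCA (8 bases), CTACCTC without the final A, and TACCTCA without the leading C, so that no site counted in more than 1 class. A site of 7 or 8 bases was present in 3109 of 21004 genes with such a region (14.8%), 2 or more sites in 2.64% and the 8-base site in 3.02%. All 9 genes held at least 1 site, a property for which such genes are known and not a result of these libraries. Hmga2 held 7, Trim71 6, Lin28b, Igf2bp1 and Arid3b 5 each, Arid3a 4, Lin28a and Igf2bp2 2 each and Igf2bp3 1. An 8-base site was found in all but Arid3b. The first 8-base site after the stop codon of 5 of them is given with the 14 bases before it (site in capitals), since the results turn on these genes.
Lin28a, chr4:134005189-134005210, minus strand: cacagcctgttgaaCTACCTCA
Lin28b, chr10:45381022-45381043, minus strand: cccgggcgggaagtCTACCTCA
Trim71, chr9:114512472-114512493, minus strand: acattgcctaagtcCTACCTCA
Igf2bp1, chr11:95961778-95961799, minus strand: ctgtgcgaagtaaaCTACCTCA
Hmga2, chr10:120364224-120364245, minus strand: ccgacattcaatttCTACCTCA
A match of letters is a description and does not show that a site was used in these cells. Which 3′ ends these cells make was not analysed here.

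UMIs (unique molecular identifiers, 1 per captured molecule) were summed per gene, library and cell class. Germ cells were cells with at least 2 UMIs over the germ genes Dazl, Tex15, Stk31 and Epcam, and with more of these than of the fibroblast genes Col1a1, Col1a2, Sparc and Dcn, and feeder cells met the reverse rule. Vehicle 1, vehicle 2 and EV 1 gave 4421, 4780 and 226 germ cells and 2346, 2477 and 2510 feeder cells, with 1496, 1380 and 2043 cells left unassigned. The germ class held 9455720, 11063898 and 324434 UMIs in that order and the feeder class 9502535, 10777506 and 6796472, so that germ cells of EV 1 had by far the fewest counts. Levels are given as CPM, counts per 1000000 UMIs of the class, with exact Poisson 95% intervals that cover counting error only. Nothing in the labels says whether the replicates came from separate cultures beyond their naming as biological replicates.

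Markers that the rule did not use fitted both classes and measured how much RNA of one class was counted in the other. Ddx4, Dnd1, Sall4, Mael, Tdrd5 and Taf4b together stood in feeder cells at 3.08%, 2.51% and 0.690% of their germ level in vehicle 1, vehicle 2 and EV 1. Single markers ran from 2.07% (Ddx4) to 4.29% (Taf4b) in vehicle 1 and from 1.34% (Tdrd5) to 4.58% (Taf4b) in vehicle 2. In the other direction, Pdgfra stood in germ cells at 4.27%, 4.55% and 5.44% of its feeder level, Col3a1 at 5.82%, 4.26% and 17.7%, and Fn1 at 11.5%, 9.67% and 19.0%, whereas Col5a1 stood at 49.5% or more in each library. Postn stood at 30.6%, 57.3% and 466% on 7, 20 and 2 germ UMIs against 23, 34 and 9 feeder UMIs, and Lum had at most 3 UMIs in either class of any library. A level at or below the lower shares of such a list is read as background and not as expression. Col5a1, and Postn on few UMIs, stood far from the other feeder markers, so that for genes of the feeder class a share in germ cells between Fn1 and Col5a1 settles nothing either way.

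Between the classes the 9 genes divided into a germ group, led by Trim71 and Lin28a, a feeder group of Hmga2 alone, and 3 genes (Igf2bp2, Igf2bp3 and Arid3a) whose CPM in the classes were within a factor of 2 in both vehicle libraries. In the edgeR quasi-likelihood test on the 4 vehicle sums, with library as a block, 6 of 9 genes were called higher in germ cells and 3 higher in feeder cells at a Benjamini-Hochberg adjusted p under 0.05. Of 16439 genes tested, 43.0% were called higher in germ cells and 43.0% higher in feeder cells, so that being called is no particular property of these genes and the sizes carry the description. TMM scaling lowered the germ levels against the feeder levels: the median log2 difference over all genes was 0.00 with it and 0.40 with plain totals, a setting added after seeing the data under which 52.9% of genes were called higher in germ cells and 34.1% higher in feeder cells, and again 6 and 3 of the 9. The directions held in every setting run, but the folds of Trim71, Lin28a, Lin28b, Arid3b, Igf2bp1 and Hmga2 moved with the choice of cells. With classes from the markers outside the rule Trim71 was 11.8-fold, Lin28a 8.14-fold, Lin28b 7.56-fold, Arid3b 5.74-fold and Igf2bp1 4.31-fold higher in germ cells, and with the stricter rule Trim71 was 80.1-fold and Lin28b 23.3-fold higher. For Hmga2 the fold ran from 30.6 with all barcodes to 61.9 with classes from the markers outside the rule, and without doublet removal Trim71 was 24.6-fold, Lin28a 18.5-fold and Hmga2 32.1-fold. Because of the scaling, fitted folds are lower for germ genes and higher for feeder genes than ratios of the CPM values printed beside them.

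**Figure D1:**
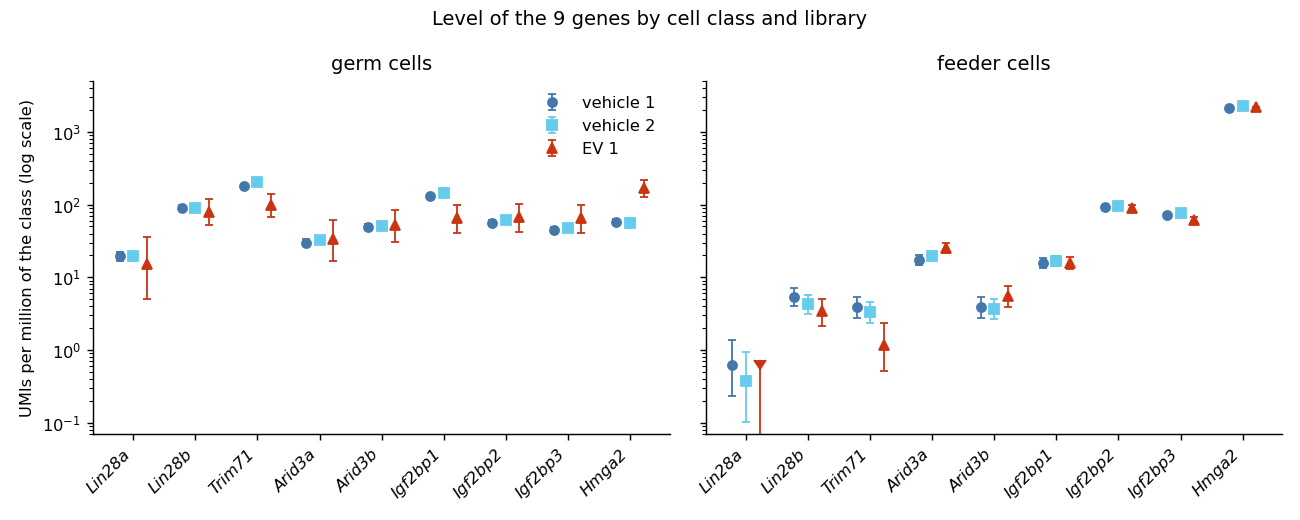
Levels in CPM (log scale) of the 9 genes in germ cells (left) and feeder cells (right), 1 point per library with its exact Poisson 95% interval; the downward triangle marks the upper limit where no UMI was counted. Hmga2 stands at 2148 to 2237 CPM in feeder cells of the 3 libraries, and Lin28a, Lin28b, Trim71 and Arid3b stand below 6 CPM there.

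Lin28a was read at 183, 215 and 5 UMIs in germ cells of vehicle 1, vehicle 2 and EV 1 (19.4, 19.4 and 15.4 CPM). Feeder cells held 6, 4 and 0 UMIs (0.631 and 0.371 CPM in the vehicle libraries, and no UMI in EV 1, where 0 counts allow up to 0.543 CPM). The feeder UMIs stood at 3.26% and 1.91% of the germ level, within the range of the single germ markers, and in vehicle 1 above the pooled 3.08%. Feeder cells without any germ marker UMI kept 4 UMIs in each vehicle library (0.501 and 0.439 CPM). Counts this low do not settle whether feeder cells express Lin28a. The fitted difference was 29.3-fold (log2 4.87 ± 0.25 SE, edgeR adjusted p = 5.24e-18).

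Lin28b, its paralogue on chromosome 10, had 861, 996 and 26 UMIs in germ cells (91.1, 90.0 and 80.1 CPM) and 51, 46 and 23 in feeder cells (5.37, 4.27 and 3.38 CPM). Germ cells were 14.4-fold higher (log2 3.84 ± 0.10 SE, edgeR adjusted p = 6.07e-26). The feeder level was 5.89% (95% interval 4.35 to 7.82), 4.74% (3.45 to 6.37) and 4.22% (2.30 to 7.70) of the germ level. These shares were above the pooled and each single germ marker in each library, although the interval of vehicle 2 took in the value of Taf4b. Among feeder cells without a single UMI of any germ marker, Lin28b fell to 2.50, 2.85 and 3.16 CPM.

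Trim71, an RNA-binding ubiquitin ligase of stem and germ cells, had 1696, 2253 and 32 UMIs in germ cells (179.4, 203.6 and 98.6 CPM). Feeder cells held 37, 36 and 8 UMIs (3.89, 3.34 and 1.18 CPM). This was the largest germ difference of the 9 genes, 40.4-fold (log2 5.34 ± 0.09 SE, edgeR adjusted p = 3.46e-31). Its feeder level, 2.17%, 1.64% and 1.19% of the germ level, lay within the range of the germ markers and is read as background. The 33 and 34 feeder cells of the vehicle libraries with a Trim71 UMI also held more of the other germ markers (90.2 and 63.5 CPM) than the feeder cells without one (14.9 and 12.5 CPM).

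Arid3b and Arid3a are paralogous DNA-binding proteins, and their levels differed between the classes to unequal degrees. Arid3b had 461, 562 and 17 UMIs in germ cells (48.8, 50.8 and 52.4 CPM) and 37, 40 and 38 in feeder cells (3.89, 3.71 and 5.59 CPM), a 9.95-fold difference (log2 3.31 ± 0.13 SE, edgeR adjusted p = 8.33e-22). The feeder share, 7.99% (5.55 to 11.2) and 7.31% (5.16 to 10.1) in the vehicle libraries, was above that of all 6 germ markers, and feeder cells without any germ marker UMI kept 4.13, 3.40 and 5.27 CPM. Arid3a had 284, 364 and 11 UMIs in germ cells (30.0, 32.9 and 33.9 CPM) and 164, 213 and 171 in feeder cells (17.3, 19.8 and 25.2 CPM). In the vehicle libraries its germ level was 1.29-fold higher by the fit (log2 0.37 ± 0.10 SE, edgeR adjusted p = 7.39e-04), and DESeq2 did not call it (log2 0.43 ± 0.26 SE, adjusted p = 0.162).

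The Igf2bp genes, which encode a family of messenger RNA-binding proteins, did not share a pattern. Igf2bp1 had 1238, 1603 and 21 UMIs in germ cells (130.9, 144.9 and 64.7 CPM) and 151, 180 and 107 in feeder cells (15.9, 16.7 and 15.7 CPM), 6.43-fold higher in germ cells (log2 2.69 ± 0.07 SE, edgeR adjusted p = 2.01e-26). Its feeder level was 12.1%, 11.5% and 24.3% of the germ level, above every germ marker, and was 14.3, 14.8 and 16.1 CPM in feeder cells without any germ marker UMI. Igf2bp2 and Igf2bp3 leaned the other way.

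Igf2bp2 had 55.8, 60.5 and 67.8 CPM in germ cells (528, 669 and 22 UMIs) and 91.8, 96.9 and 90.6 CPM in feeder cells (872, 1044 and 616 UMIs). The difference was 2.13-fold (log2 -1.09 ± 0.06 SE, germ minus feeder, edgeR adjusted p = 2.03e-18), and 1.62-fold with plain totals. Igf2bp3 had 44.4, 47.6 and 64.7 CPM in germ cells (420, 527 and 21 UMIs) and 70.8, 75.4 and 61.4 CPM in feeder cells (673, 813 and 417 UMIs), 2.09-fold higher in feeder cells (log2 -1.06 ± 0.06 SE, edgeR adjusted p = 7.30e-17). In germ cells of vehicle 1 and vehicle 2, Igf2bp2 stood at 60.9% and 62.4% of its feeder level and Igf2bp3 at 62.7% and 63.1%, above Pdgfra, Col3a1, Col6a1 and Fn1 and close to Col5a1 (56.6% and 61.5%). In germ cells without a UMI of any feeder marker, Igf2bp2 was counted at 52.3 and 58.2 CPM and Igf2bp3 at 43.8 and 47.1 CPM. Across the 6 sums of class and library, centred, Igf2bp2 and Igf2bp3 were the closest pair among the 9 genes, with a root mean square difference of 0.15 on the log2 scale.

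Hmga2, a chromatin protein of embryonic and mesenchymal cells and the classic let-7 target, was the reverse of the Lin28 genes. Feeder cells held 20408, 24110 and 14820 UMIs (2148, 2237 and 2181 CPM). Germ cells held 552, 625 and 55 UMIs (58.4, 56.5 and 169.5 CPM). Levels in the feeder class were 50.3-fold higher in the vehicle libraries (log2 -5.65 ± 0.06 SE, germ minus feeder, edgeR adjusted p = 2.58e-36), larger than that of any other of the 9 genes with these settings, although Trim71 exceeded it with the stricter rule, with plain totals and with EV 1 added to the fit. The germ level was 2.72%, 2.53% and 7.77% of the feeder level, which in the vehicle libraries is below each of Pdgfra, Col3a1, Col6a1, Fn1 and Col5a1. By that measure Hmga2 in germ cells is read as background. Germ cells without a UMI of any feeder marker still held it at 43.8 and 39.0 CPM in the vehicle libraries. Germ cells with a Hmga2 UMI held the feeder markers outside the rule at 245.6 and 228.4 CPM, against 192.8 and 178.4 in those without. Whether germ cells express any Hmga2 of their own was not tested.

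**Figure D2:**
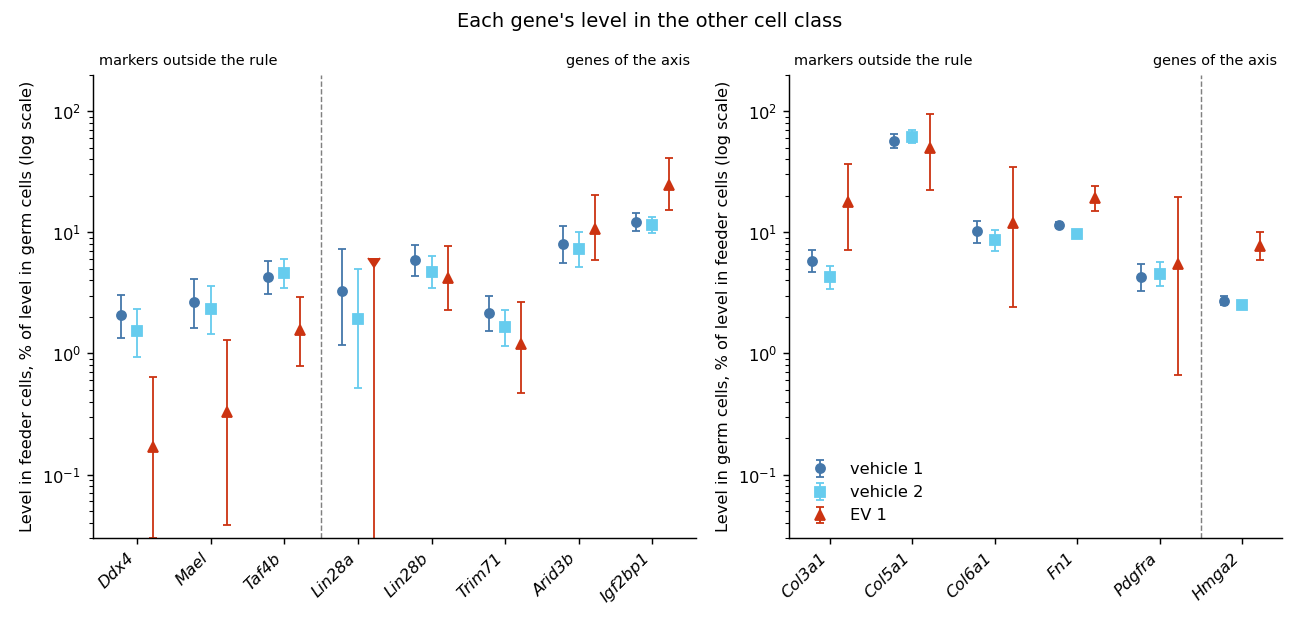
Level of each gene in the class where it is lower, as a percent of its level in the other class (log scale), with exact conditional 95% intervals, for germ genes in feeder cells (left) and feeder genes in germ cells (right). Markers that the class rule did not use and that had at least 20 UMIs in their own class of every library stand left of the dashed line; in the vehicle libraries Hmga2 lies below every feeder marker, and Arid3b and Igf2bp1 lie above the germ markers.

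Each gene was also read as the share of cells with at least 1 UMI. At full depth, where germ cells had a median of 1936 and 2098.5 UMIs and feeder cells of 3620.5 and 3899 in the vehicle libraries, Hmga2 was detected in 89.4% and 91.1% of feeder cells and in 9.25% and 9.12% of germ cells. With each cell thinned to 1000 UMIs, which left out 147 and 112 germ cells and 86 and 55 feeder cells, Hmga2 was in 71.7% and 73.4% of feeder cells and in 4.63% and 4.16% of germ cells. Trim71 was then in 15.9% and 16.8% of germ cells against 0.487% and 0.289% of feeder cells, and Lin28a in 1.75% and 2.19% against 0.133% and 0.0826%. For comparison Ddx4, which feeder cells should lack, was in 12.0% and 11.8% of germ cells and in 0.354% and 0.124% of feeder cells. So few feeder cells are behind these shares that no order between the genes is read from them. Arid3a was in a higher share of feeder cells at full depth and in a higher share of germ cells at equal depth.

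**Figure D3:**
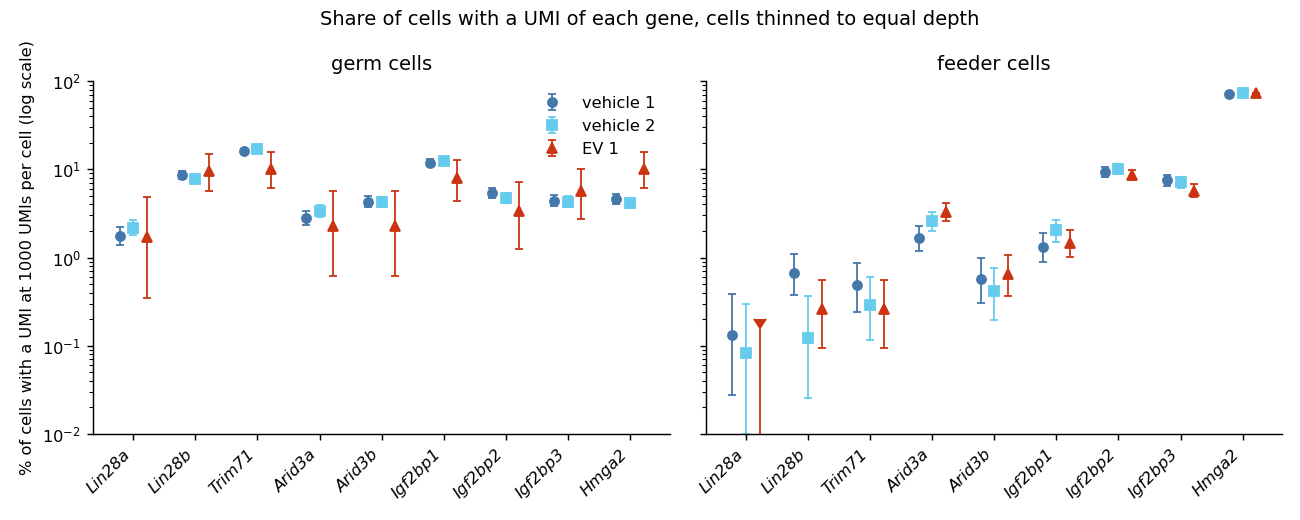
Percent of cells with at least 1 UMI of each gene (log scale) after thinning every cell to 1000 UMIs, in germ cells (left) and feeder cells (right), with exact binomial 95% intervals; the downward triangle marks the upper limit where no cell had a UMI. Hmga2 reaches 71.7% to 73.4% of feeder cells in all 3 libraries, and each other gene stays under 20% in either class.

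Within germ cells, Lin28b and Igf2bp1 differed in opposite directions between cells picked by marker UMIs. Cells with a UMI of Stra8 or Kit, genes of differentiating spermatogonia, were set against cells with a UMI of Gfra1, Etv5, Ret or Lhx1, genes of undifferentiated spermatogonia, and none of Stra8 or Kit (1403 and 1580 against 1635 and 1858 cells in vehicle 1 and vehicle 2). Lin28b was 1.40 times as high in the Stra8 or Kit cells of vehicle 1 (1.19 to 1.64) and 1.26 times in those of vehicle 2 (1.09 to 1.45). Igf2bp1 was lower there, at 0.766 (0.673 to 0.873) and 0.764 (0.683 to 0.854) of the level in the other cells. For Lin28a the ratios were 1.04 (0.724 to 1.49) and 1.13 (0.828 to 1.55), and for Trim71 0.973 (0.871 to 1.09) and 0.943 (0.859 to 1.04), intervals that include 1. Hmga2, a gene read as background, stood at 0.799 (0.649 to 0.981) and 0.743 (0.612 to 0.900) in the Stra8 or Kit cells, about as low as Igf2bp1. The share of all genes that differ as much in this split was not computed, and the part of depth was not tested. These intervals cover counting error within a library, and cells of 1 library are not replicates.

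The proliferation genes Mki67 and Top2a gave a further split. In germ cells of the vehicle libraries with a UMI of either, Lin28b was 1.17 (0.998 to 1.39) and 1.36 (1.15 to 1.60) times as high as in the cells without, and Trim71 was 0.961 and 0.983 times as high. Hmga2 in feeder cells was 0.836 (0.803 to 0.870) and 0.816 (0.785 to 0.848) times as high in cells of the vehicle libraries with a Mki67 or Top2a UMI, and in EV 1 1.03 (0.926 to 1.13) times. Trim71 in feeder cells of the vehicle libraries was 5.04 (2.49 to 10.1) and 2.91 (1.33 to 6.05) times as high in such cells, over 37 and 36 UMIs in all. Mki67 and Top2a were themselves more abundant in germ cells, at 1087 and 1189 CPM together against 74.6 and 75.3 in feeder cells, and the part of carried-over germ RNA in this ratio was not tested.

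The next question was how the genes stood in the culture given testis EVs. With 1 EV library there is no test, and values of EV 1 are set beside both vehicle libraries. A gene is called apart here under 2 conditions: 1 is outside the exact 95% interval of the ratio of EV 1 to the pooled vehicle libraries, and EV 1 is farther from the nearer vehicle library than those libraries are from each other. In germ cells, 1 of 9 genes was apart and higher (Hmga2) and 2 were apart and lower (Trim71 and Igf2bp1), where 6.39% of 15559 genes with at least 20 UMIs were apart and higher and 4.14% apart and lower. Those shares take in genes counted too thinly in germ cells of EV 1 to be called lower. Onecut2, for one, with 47 and 39 vehicle UMIs and 0 in EV 1, had an upper limit of 2.77. The 9 genes held 403 to 3981 germ UMIs over the libraries, and the share over genes of like depth was not computed. In feeder cells, 1 of the 8 genes with at least 20 UMIs was apart and higher (Arid3a) and 2 were apart and lower (Trim71 and Igf2bp3), where 13.3% of 15276 genes were apart and higher and 26.1% apart and lower. The median log2 ratio of the genes was 0.11 in germ cells, where that of all genes was 0.15, and -0.05 in feeder cells, where that of all genes was -0.11. The medians stand for genes that went both ways, from -1.06 to 1.57 in germ cells, and say little of any 1 gene. In the unassigned cells, 2 of the 9 genes were apart and higher and 5 lower, where 19.8% of 14051 genes were apart and higher and 25.8% apart and lower.

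**Figure D4:**
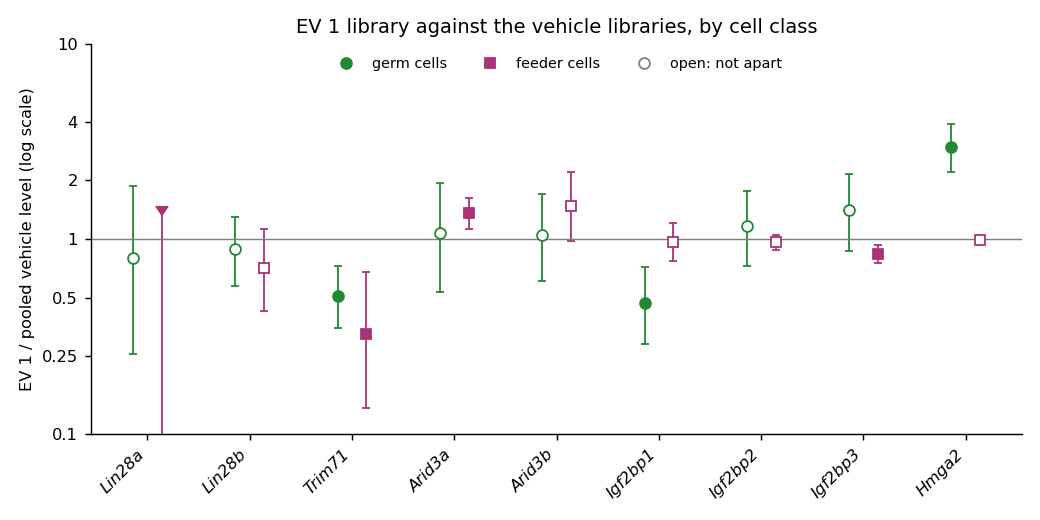
Ratio of the EV 1 level to that of the pooled vehicle libraries (log scale) with its exact conditional 95% interval, for germ cells (circles) and feeder cells (squares). Filled symbols are apart from the vehicle libraries: Trim71, Igf2bp1 and Hmga2 in germ cells, and Trim71, Arid3a and Igf2bp3 in feeder cells; the triangle marks the upper limit for Lin28a in feeder cells of EV 1, which held no UMI.

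Both Lin28 genes gave no difference that these counts could show. In germ cells of EV 1, Lin28a stood at 0.795 (0.257 to 1.87) and Lin28b at 0.886 (0.577 to 1.30) of the pooled vehicle level, on 5 and 26 UMIs. Neither interval excludes 1, and that of Lin28a is too wide to set a useful limit. Lin28b in feeder cells was at 0.708 (0.428 to 1.12), on 23 UMIs.

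Trim71 was lower in germ cells of EV 1, at 98.6 CPM (67.5 to 139.2) against 179.4 and 203.6 in the vehicle libraries, a ratio of 0.513 (0.350 to 0.725). The 32 UMIs came from 26 of 226 cells. Germ markers outside the rule stood at 511.7 CPM in these cells against 523.0 and 527.8, and Mki67 with Top2a at 773.7 against 1087 and 1189. The log2 ratio was -0.94, and was -0.24 where the classes were called from the markers outside the rule, which left 47 germ cells of EV 1 and 14 Trim71 UMIs. Its ratio in feeder cells, 0.327 (0.136 to 0.679), compares levels read as background above, and the pooled germ markers fell alike there, from 16.1 and 13.3 to 3.53 CPM.

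Igf2bp1 was likewise lower in germ cells of EV 1, at 64.7 CPM (40.1 to 98.9) against 130.9 and 144.9, a ratio of 0.468 (0.289 to 0.716). Feeder cells gave 15.7 CPM against 15.9 and 16.7, a ratio of 0.965 (0.768 to 1.20). Whether the ratios of the classes differ was not tested. Germ cells of EV 1 also differed in depth, with a median of 1325 UMIs against 1936 and 2098.5, and in Mt1 plus Mt2, at 3387 CPM against 914.9 and 775.9, and the part of either in the values of Trim71 and Igf2bp1 was not tested. Igf2bp2 and Igf2bp3 in germ cells were at 1.16 (0.726 to 1.77) and 1.40 (0.864 to 2.16) of the vehicle level, and Arid3a and Arid3b at 1.07 (0.533 to 1.93) and 1.05 (0.610 to 1.69), none of them apart.

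Hmga2 was 2.96 times as high in germ cells of EV 1 as in those of the vehicle libraries (2.21 to 3.87), on 55 UMIs. The feeder markers outside the rule stood together at 299.0 CPM in these cells against 198.4 and 183.7. Singly they were uneven, with Fn1 at 19.0% of its feeder level against 11.5% and 9.67%, Col3a1 at 17.7% against 5.82% and 4.26%, Col6a1 at 11.9% against 10.2% and 8.60%, Pdgfra at 5.44% against 4.27% and 4.55%, and Col5a1 at 49.5% against 56.6% and 61.5%. At 7.77% (5.85 to 10.1) of its feeder level, Hmga2 in germ cells of EV 1 was below Fn1, Col3a1, Col6a1 and Col5a1 and above Pdgfra, which rests on 2 UMIs with an interval of 0.658 to 19.7. Col6a1 (3 UMIs, 2.44 to 34.8) and Col3a1 (7 UMIs, 7.08 to 36.6) also rest on few UMIs, with intervals that overlap that of Hmga2. In the 124 germ cells of EV 1 without a UMI of any of the 11 feeder markers it was 132.6 CPM (83.1 to 200.7) against 43.8 and 39.0 in such cells of the vehicle libraries, a log2 ratio of 1.71 in a selection made after seeing the data. With at least 4 germ marker UMIs and no feeder marker of the rule, 70 germ cells of EV 1 remained with 7 Hmga2 UMIs, and the log2 ratio was 0.50 in place of 1.57. The part of carried-over feeder RNA in this difference was not tested.

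In feeder cells, where Hmga2 is abundant, its level in EV 1 was 2181 CPM against 2148 and 2237, a ratio of 0.993 (0.975 to 1.01). Among feeder cells the level was not even. Feeder cells were divided at the median share of metallothionein RNA, Mt1 plus Mt2, since these metal and stress response genes stood at 10567 CPM in feeder cells of EV 1 against 3038 and 2929. Of the feeder cells of EV 1, 1889 were above the median and 621 not, whereas 878 and 898 were above and 1468 and 1579 not in the vehicle libraries. Not above the median, Hmga2 stood at 4210 CPM in EV 1 (4106 to 4315) against 2393 and 2537. Above it, the level was 1610 CPM (1576 to 1645) against 1729 and 1710. In each library Hmga2 was thus lower in the cells rich in metallothionein RNA, at 0.723, 0.674 and 0.382 of the level in the other cells for vehicle 1, vehicle 2 and EV 1. This was not particular to Hmga2. The other genes of the axis also had ratios below 1 in each library that gave a ratio, though some intervals include 1. Lin28b, for one, stood at 0.272, 0.488 and 0.437, and Trim71 at 0.330, 0.351 and 0.469, on few UMIs. The share of all genes lower in these cells is not given here.

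**Figure D5:**
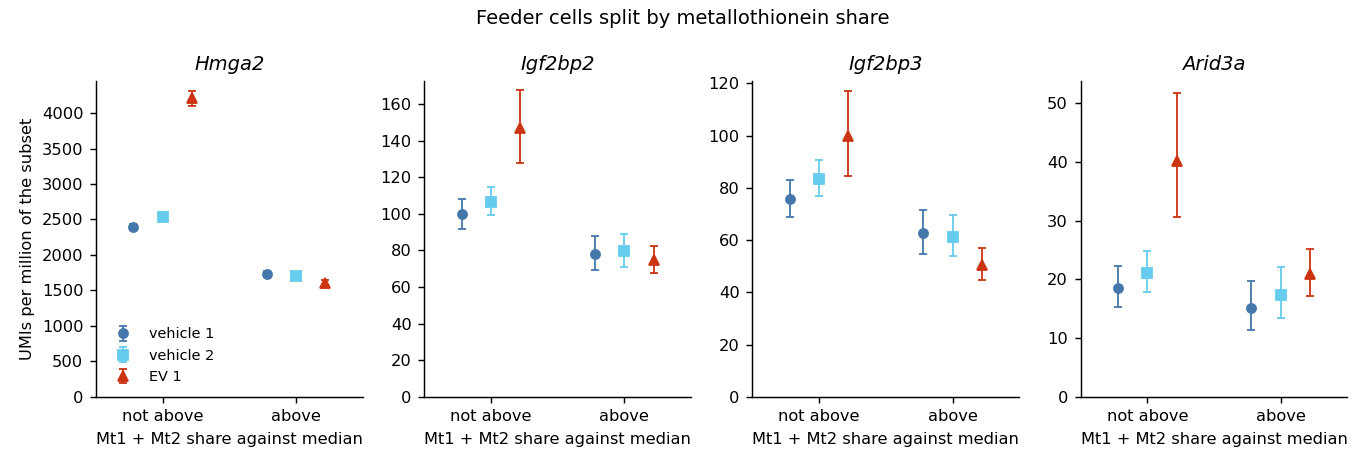
Levels in CPM of the subset in feeder cells with a share of Mt1 plus Mt2 not above, or above, the median over feeder cells of the 3 libraries, for Hmga2, Igf2bp2, Igf2bp3 and Arid3a, with exact Poisson 95% intervals. In the cells not above the median EV 1 lies over both vehicle libraries for the 4 genes drawn, as it does for 51.4% of all genes there, and in the other cells it lies below them for Hmga2, Igf2bp2 and Igf2bp3, as for 52.3% of all genes.

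Such a split moved many genes: of 14001 genes with at least 20 UMIs in feeder cells not above the median, 51.4% were higher in EV 1 than in both vehicle libraries and 39.0% lower than in both. Of the 8 genes of the axis that reached 20 UMIs there, 6 were higher than in both (Hmga2, Igf2bp1, Igf2bp2, Igf2bp3, Arid3a and Arid3b) and Trim71 was lower than in both, with a median log2 ratio of 0.43 where that of all genes was 0.15. Above the median, 28.3% of 12750 genes were higher than in both vehicle libraries and 52.3% lower than in both, and of 7 genes of the axis 3 were higher (Lin28b, Arid3a and Arid3b) and 3 lower (Hmga2, Igf2bp2 and Igf2bp3).

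Igf2bp2 and Igf2bp3 also stood lower in the metallothionein-rich cells of each library, and Arid3a in those of EV 1 (0.520, 0.377 to 0.724), while its ratios in the vehicle libraries, 0.815 (0.576 to 1.14) and 0.823 (0.608 to 1.11), include 1. In feeder cells not above the median, Igf2bp2 stood at 146.8 CPM in EV 1 against 99.8 and 106.8, Igf2bp3 at 99.9 against 75.6 and 83.5, and Arid3a at 40.2 against 18.5 and 21.1. In cells above it, Igf2bp2 stood at 74.8 CPM in EV 1 against 78.0 and 79.5 and Igf2bp3 at 50.5 against 62.7 and 61.4, whereas Arid3a was the higher in EV 1 there too, at 20.9 against 15.1 and 17.4. Over all feeder cells Igf2bp3 was apart and lower, at a ratio of 0.837 (0.749 to 0.934), and Arid3a apart and higher, at 1.35 (1.12 to 1.63), while Igf2bp2 was at 0.959 (0.875 to 1.05). The direction of Igf2bp3 thus differed between the parts of the split. Mt1 plus Mt2 itself differed between EV 1 and the vehicle libraries, so that each part takes unlike shares of their cells. The median depth of the EV 1 cells not above the median was 2065 UMIs, against 2573 above it, and the part of depth in these differences was not tested.

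The partners of LIN28 in let-7 decay were counted in both classes. Tut4 was 1.52-fold higher in germ cells of the vehicle libraries (log2 0.60 ± 0.04 SE, edgeR adjusted p = 3.13e-14), at 210.6 and 220.1 CPM against 106.1 and 109.2. Tut7 was 2.45-fold higher in feeder cells (log2 -1.29 ± 0.06 SE, germ minus feeder, edgeR adjusted p = 1.37e-18), at 71.6 and 74.5 CPM against 36.7 and 41.6. Its germ level was 51.3% and 55.8% of the feeder level, above Fn1 and below Col5a1, and does not settle whether germ cells express it. Dis3l2 had nearly the same CPM in both, 53.5 and 56.4 in germ against 52.4 and 57.0 in feeder cells, and its call as higher in feeder cells (log2 -0.39 ± 0.06 SE, edgeR adjusted p = 1.37e-06) came from the TMM scaling, since with plain totals the log2 difference was 0.01. In germ cells of EV 1, Dis3l2 was apart and lower at 0.504 (0.230 to 0.960), on 9 UMIs, Tut7 apart and higher at 1.65 (1.01 to 2.53) on 21, and Tut4 at 0.986 (0.766 to 1.25).

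Genes that span let-7 hairpins on the same strand in the annotation were read as far as the matrices held them. Lncppara, which spans the hairpins of let-7b and let-7c-2, had 16.2 and 15.5 CPM in feeder cells of the vehicle libraries and 13.2 in EV 1, against 0.846 and 0.904 in germ cells of the vehicle libraries and no UMI in those of EV 1. It was outside the rule for naming and was chosen after its values were seen. Mir99ahg, which spans let-7c-1, stood at 70.7, 72.4 and 64.9 CPM in feeder cells and at 1.37, 1.45 and 6.16 in germ cells, the last on 2 UMIs. Mir100hg, which spans let-7a-2, stood at 333.7, 362.0 and 528.2 CPM in feeder cells, apart and higher in EV 1 at 1.51 (1.45 to 1.58). In germ cells it was at 8.46, 6.60 and 33.9 CPM, at 2.54%, 1.82% and 6.42% of the feeder level, below Pdgfra, Col3a1, Col6a1 and Fn1 in the vehicle libraries, and in EV 1 above Pdgfra and below the other 3. Pdgfra, Col6a1 and Col3a1 rest there on 2, 3 and 7 UMIs. Huwe1, which spans let-7f-2 and miR-98, was 1.42-fold higher in germ cells (log2 0.51 ± 0.04 SE, edgeR adjusted p = 2.56e-13). In germ cells of EV 1, Huwe1 was apart and lower at 0.759 (0.604 to 0.941), and Mir100hg apart and higher at 4.55 (2.22 to 8.37) on 11 UMIs. The feeder markers outside the rule were higher in the same cells (299.0 CPM against 198.4 and 183.7), and their part in the value of Mir100hg was not tested. The other host genes, also named after their values were seen and not tested between classes, were 6720427I07Rik, Spaca6 and Wdr82. 6720427I07Rik, which spans let-7a-1, let-7d and let-7f-1, leaned to germ cells, at 30.0, 32.1 and 37.0 CPM against 13.3, 12.9 and 19.1 in feeder cells. Spaca6 (let-7e) had 122, 155 and 5 UMIs in germ cells, at 12.9 to 15.4 CPM, and 41.7, 42.2 and 64.4 CPM in feeder cells, and Wdr82 (let-7g) had 28.0, 29.5 and 24.7 CPM against 32.5, 34.7 and 28.2. A host transcript does not measure the mature microRNA, whose processing is the step that LIN28 acts on.

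A wider list of 38 other reported let-7 targets was read the same way. In the vehicle libraries 36 passed the filter, 20 of them called higher in germ cells and 13 higher in feeder cells, where 43.0% of all genes were called each way, with a median log2 difference of 0.27 where that of all genes was 0.00. In germ cells of EV 1, 2 of 36 with at least 20 UMIs were apart and higher and 1 was lower, where 6.39% and 4.14% of all genes were, with a median log2 ratio of 0.06 where that of all genes was 0.15. In feeder cells, 6 of 33 were apart and higher and 11 lower, where 13.3% and 26.1% of all genes were, with a median of -0.05 where that of all genes was -0.11. Whether the list differs from all genes was not tested.

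The rule for naming was applied to the log2 ratios, which have UMIs added to each sum. The lowest in germ cells were those of Mycn, Onecut2 and Limd2. Mycn had 1 UMI in EV 1 and 155 and 186 in the vehicle libraries, and Onecut2 had 0, 47 and 39. Only Limd2 was apart, at a ratio of 0.399 (0.172 to 0.789). E2f2, with 1 UMI in EV 1, had a lower plain ratio of 0.301 (0.00759 to 1.70) and was not apart. Its log2 ratio was -1.16, against -1.24 for Limd2. The highest log2 ratios were those of Zbtb5, Fign and Stard13, and Stard13 was apart at a ratio of 2.87 (1.04 to 6.43) on 6 UMIs. In feeder cells Limd2, Cdc25a and Fign were lowest, at 0.352, 0.593 and 0.631, and Thbs1, Ccnd2 and Slc20a1 highest, at 3.34, 1.61 and 1.38, all of them apart. Ccnd2, a G1 cyclin, rests on 3148, 3844 and 3781 UMIs, and Thbs1, a secreted matrix protein, on 123, 127 and 280. Among all genes with an annotated 3′ untranslated region and at least 20 UMIs, the median log2 ratio of EV 1 was 0.10, 0.15 and 0.17 in germ cells for genes with no, 1 and 2 or more let-7 sites, and -0.14, -0.14 and -0.09 in feeder cells.

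Among 12589 other genes with at least 200 UMIs, the closest in pattern over the 6 sums of class and library (root mean square difference of centred log2 CPM with 0.5 UMI added) were Pnma5 for Lin28a (0.03), Zcwpw1 for Lin28b (0.11), Zfp518a for Trim71 (0.16), Cks2 for Igf2bp1 (0.11), Smo for Igf2bp2 (0.02), Ptar1 for Igf2bp3 (0.03), Dgkh for Arid3a (0.05), Tec for Arid3b (0.11) and Trim30d for Hmga2 (0.19). The points share libraries and classes, and for Lin28a they rest on few feeder UMIs. Of the 9 genes, Lin28a, Hmga2, Igf2bp1, Igf2bp3, Trim71 and Arid3b overlap an annotated gene on the opposite strand. Whether counting used the strand and whether reads in introns were counted is not given in the sources used here, and 5 of the genes (Lin28b, Hmga2, Igf2bp2, Igf2bp3 and Trim71) span over 50 kb.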

How the data were processed

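The authors dissociated the cultures and made droplet libraries (10x Genomics). Per the file headers and the submitters' notes, UMIs were counted with Cell Ranger 7.0.1 against mm10. The deposited values are raw UMI counts per gene and barcode, not normalized, and those of 3 libraries were analysed (23686047, 27444797 and 10793232 UMIs in 9291, 9738 and 5249 barcodes). For EV 2 a list of 6794 barcodes was used. At most 22 barcodes were shared by any pair of libraries.

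Following the methods of the study, barcodes were kept if they had more than 400 genes, fewer than 4000 and less than 10% mitochondrial UMIs. In place of the study's DoubletFinder step, the highest Scrublet scores (scanpy 1.11.5) were then removed at 0.8% per 1000 cells. There remained 8263, 8637 and 4779 cells. Classes, intervals and ratios were computed in Python 3.11.15, and edgeR 4.0.16 and DESeq2 1.42.0 in R 4.3.3 tested germ against feeder sums with filterByExpr, on 2 libraries. The edgeR step was tested on simulated data. Log2 ratios of EV 1 took the mean vehicle CPM with 0.5 UMI added to each sum. Sites and coordinates came from GENCODE vM21 and RefSeq, both on GRCm38.

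The 9 genes, the marker lists and the other target lists were chosen with earlier results of these data known. The text names all 9 genes, the partners and the hosts, the 3 highest and 3 lowest other targets per class with at least 50 UMIs, and the nearest of the 3 genes most alike. Mirlet7bhg, on the list of hosts, was not among the symbols of the matrices. Markers of Sertoli, Leydig, peritubular myoid, macrophage and endothelial cells were listed too. Their summed levels in germ cells of vehicle 1, vehicle 2 and EV 1 were 29.0, 26.7 and 49.3 CPM (Sertoli), 6.56, 7.32 and 6.16 (Leydig), 14.3, 12.0 and 12.3 (peritubular myoid), 1.06, 1.63 and 6.16 (macrophage) and 18.3, 19.1 and 27.7 (endothelial). In feeder cells they were 288.0, 304.0 and 281.0, 3.89, 3.25 and 2.21, 27.4, 27.1 and 17.1, 1.89, 2.13 and 2.80, and 6.63, 4.36 and 5.89. Alternatives covered the cell filters, doublets, class rule, scaling, added UMIs, free RNA and subsets of cells.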

Additional observations from a re-analysis of the deposited data

Results flagged for a closer look

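The cells that the class rule left unassigned belong to neither class, and of the levels there only counts of genes apart are given above. In EV 1 they held Hmga2 at 3220 CPM (9348 UMIs) against 1628 and 1794 CPM in vehicle 1 and vehicle 2, a ratio to the pooled vehicle libraries of 1.88 (1.83 to 1.94), which is above the level of the control libraries and also above the 2181 CPM of the feeder class of EV 1. Igf2bp2 stood at 151.5 CPM there against 100.9 and 101.2, and the 95% interval of the ratio was 1.31 to 1.71. Lin28a, Lin28b, Trim71, Igf2bp1 and Arid3b were apart and lower in the same cells, at ratios from 0.109 to 0.342. Of all genes in these cells, 19.8% were apart and higher and 25.8% apart and lower. The unassigned cells numbered 2043 in EV 1, 42.7% of its cells, against 18.1% and 16.0% in the vehicle libraries, and held the germ markers outside the rule at 33.4 CPM against 234.0 and 209.2 and the feeder markers outside the rule at 1418 against 865.7 and 901.3. The part of this shift in the makeup of the unassigned cells in the levels of the genes was not tested.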

How the results depend on the processing

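Depth limits the EV values, since germ cells of EV 1 held 324434 UMIs, and 5 to 55 of each gene. The counts of genes called higher in germ (5 to 6) and in feeder cells (3) held under every alternative run, among them the fit with no replicate block (6 and 3), and DESeq2 lost Arid3a and, outside the 9 genes, Dis3l2 (log2 -0.33). No paired analysis was possible for EV against vehicle because only EV 1 was analysed in the EV arm, so that the arms compared share a single replicate number. With a single vehicle library, the classes leave no residual degrees of freedom, and counting intervals of each library gave 6 and 3.

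The median log2 ratio of EV 1 in germ cells, 0.11, moved to -0.04 with TMM factors, -0.02 with DESeq2 size factors, 0.01 with means over cells, -0.05 with free RNA subtracted, 0.01 with all barcodes, 0.02 without doublet removal, -0.02 with the stricter class rule and -0.24 with classes from the markers outside the rule, and was 0.09 to 0.14 without either vehicle library. TMM factors moved the median of all genes by -0.15 in germ cells and by 0.07 in feeder cells. In feeder cells the median, -0.05, moved to 0.02 with TMM factors, 0.04 with DESeq2 size factors, -0.16 with means over cells, 0.31 with free RNA subtracted, -0.13 with all barcodes, -0.12 with the stricter rule, -0.23 with classes from the markers outside the rule, 0.43 in cells with Mt1 plus Mt2 not above the median and 0.07 in cells without a germ marker UMI (added after seeing the data), and was -0.09 to -0.01 without either vehicle library. The cause of these moves was not tested. For Hmga2 in germ cells, the subtraction left no UMI in any library and gave no value.

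Trim71 in feeder cells turned to 3.53 with free RNA subtracted, and Igf2bp3 in feeder cells to 0.33 in cells with Mt1 plus Mt2 not above the median. Dis3l2 between classes turned to 0.01 with plain totals. The germ ratios of the 6 genes not apart changed sign under at least 1 alternative each, over ranges of -1.83 to 0.12 (Lin28a), -0.30 to 0.41 (Lin28b), -0.02 to 0.50 (Igf2bp2), -0.22 to 1.14 (Igf2bp3), -0.90 to 0.57 (Arid3a) and -1.59 to 0.18 (Arid3b). In germ cells Trim71 and Igf2bp1 were below 0 in all 13 alternatives (-1.52 to -0.24 and -1.76 to -0.85), and Hmga2 was above 0 in all 12 that gave a value (0.50 to 1.94).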
